A study of Mus musculus with 6 samples.

Results

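Cytosolic ribosomal protein genes are described here in LSK cells, which lack lineage markers and carry Sca-1 and c-Kit, the bone marrow fraction that holds haematopoietic stem cells and early progenitors. Members were all probes whose gene symbol begins with Rpl or Rps and a digit, or is Rpsa, Rplp0, Rplp1 or Rplp2. Ribosomal S6 kinase genes and pseudogenes marked -ps were left out. This gave 186 probes of 87 genes, out of 56605 probes and 37074 gene names on the array. Of these, 181 probes and 84 genes exceeded the scanner's background test on 3 or more of the 6 arrays and were tested. They comprised 47 large subunit genes (Rpl, Rplp), 31 small subunit genes (Rps, Rpsa), 5 paralogues whose symbol ends in l or l1, and Rps19bp1, which has a matching symbol but encodes a protein that binds Rps19. The paralogues Rpl3l, Rpl10l and Rpl39l were well above background on 2, 0 and 2 arrays and were not tested.

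RNA of 3 control and 3 Atg5f/f;Vav samples was hybridised to 1-colour Agilent arrays, with 1 array per sample. Control mice were Atg5w/w;Vav and carried the same VaviCre transgene as Atg5f/f;Vav mice, in which both Atg5 alleles were flanked by loxP sites. The Vav promoter drives Cre throughout the haematopoietic system, so deletion was not confined to LSK cells. All mice were C57BL/6 at P6–P8, and LSK cells were sorted directly into TRIzol. The sources used here do not say whether a sample was 1 mouse or a pool, so n and SD refer to arrays, and p-values measure only the spread between these arrays.

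Values are log2 intensities relative to each array's 75th percentile, hereafter log2 signal, and a log2 fold change is Atg5f/f;Vav minus control. All arrays shared 1 slide and 1 scan. Because each genotype filled its own row of the slide, an effect of the row and one of genotype cannot be told apart. The single Atg5 probe read 1.095, 0.933 and 1.06 in controls against 1.46, 1.51 and 1.74 in samples labelled Atg5f/f;Vav. It was higher, not lower, on every one of the latter, with a log2 fold change of 0.54 ± 0.12 (SE, limma adjusted p = 0.0209). Whether that probe lies in the deleted part was not tested. From measurements other than these arrays, the paper reports sufficiently high Atg5 deletion with this Cre and impaired autophagy in Atg5f/f;Vav LSK cells. Among the LSK gate's genes, Kit and Ly6a, which encodes Sca-1, were above background on every array. Ly6a was between 1.31 and 1.56 on control arrays and between 2.89 and 3.30 on Atg5f/f;Vav arrays, and Kit changed by −0.38 ± 0.13 (SE) without passing the test. Of the 7 genes listed for the gate and its subsets, Ly6a was called higher and Ptprc lower, at −0.34 ± 0.11, and the median was −0.27, with Flt3 at −0.87 ± 0.31 not past the threshold. Summed erythroid markers (9 of 10 tested) ranged from 8.45 to 9.48 on control arrays and from 7.25 to 7.69 on Atg5f/f;Vav arrays, with Hba-a1 and Slc4a1 lower but Gata1 and Car1 higher. Of 8 neutrophil markers, 6 were lower and Mpo was higher, and their summed signal was 7.43 to 8.10 on control arrays against 7.73 to 8.05. Of 6 stromal markers, 5 were tested and 3 were lower, and their summed signal was 3.27 on control 1 and 5.31 and 4.89 on controls 2 and 3, against 2.42 to 3.09 on Atg5f/f;Vav arrays. Of 4 megakaryocyte markers, Itga2b was higher and Gp9 and Ppbp were lower, with a summed signal of 2.56 to 2.86 against 2.39 to 2.52. The part of these differences in the results below was not tested. In sorted populations of this kind, fewer cells of a type and less RNA per cell cannot be told apart.

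Ribosomal proteins assemble with ribosomal RNA into the large and the small ribosomal subunit, which must be made in matching amounts. Most of their mRNAs begin with a cytidine followed by a stretch of pyrimidines, the terminal oligopyrimidine (TOP) tract, through which mTOR signalling and Larp1 regulate these mRNAs. Blood-forming cells are known to be sensitive to loss of single ribosomal proteins, as in Diamond-Blackfan anaemia.

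Starts of member genes are printed to show pyrimidine runs near them, in paralogues and in their parents. They are given from 10 bases before to 20 bases after the RefSeq-annotated start (RefSeq, GRCm38.p6), 5′ to 3′ on the transcript strand, with the longest run of pyrimidines beginning with C in capitals. Rpl7a and Rps6 are core genes described below, and the other lines pair parents with paralogues where the table held a start.
Rpl7a: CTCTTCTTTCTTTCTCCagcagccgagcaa
Rps6: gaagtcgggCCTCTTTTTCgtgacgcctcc
Rps27: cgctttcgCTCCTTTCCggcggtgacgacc
Rps27l: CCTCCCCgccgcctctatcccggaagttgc
Rpl36a: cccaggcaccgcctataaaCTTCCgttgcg
Rpl36al: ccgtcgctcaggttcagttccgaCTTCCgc
Rpl22: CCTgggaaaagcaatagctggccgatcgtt
Rpl22l1: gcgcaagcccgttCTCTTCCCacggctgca
Rpl7l1: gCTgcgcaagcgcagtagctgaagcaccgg
The windows lie at chr2:26910797-26910826 (Rpl7a, plus strand), chr4:86857348-86857377 (Rps6, minus), chr3:90213629-90213658 (Rps27, minus), chr9:66946076-66946105 (Rps27l, plus), chrX:134585644-134585673 (Rpl36a, plus), chr12:69184048-69184077 (Rpl36al, minus), chr4:152325716-152325745 (Rpl22, plus), chr3:28805498-28805527 (Rpl22l1, plus) and chr17:46782637-46782666 (Rpl7l1, minus).
The annotated start follows the first 10 printed bases. The capitals span the start in Rpl7a, Rps6 and Rps27. They lie wholly before it in Rps27l, Rpl22 and Rpl7l1, and wholly after it in Rpl36a, Rpl36al and Rpl22l1. Those runs are therefore not shown to be TOP tracts. Runs within 30 bases of a start, counted next, need not begin at it either. The capitals of Rpl7a, Rps27l and Rpl22 begin at the first printed base, and their runs can go on before it. Searched within 30 bases on either side of the annotated starts, the longest run was 19 bases in Rpl7a and 10 in Rps6. It was 9 in both Rps27 and Rps27l, 5 in both Rpl36a and Rpl36al, 5 in Rpl22 and 8 in Rpl22l1, and 4 in Rpl7l1. Of 58 tested core genes with a promoter in the RefSeq table, 31 (53.4%) had a run of at least 8 such bases on the transcript strand within 30 bases of an annotated start, against 20.6% of the 27025 genes in the table and 2 of 4 paralogues. The letters CCGGAAG, searched on both strands from 250 bases before to 50 bases after the start, occurred in 24 core genes (41.4%) and in 9.9% of all genes. On the opposite strand these letters begin with CTTCC, which can overlap a pyrimidine run.

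Core ribosomal protein genes differed little between control and Atg5f/f;Vav LSK cells, by the size of their fold changes. Of the 78 core genes, 3 were called higher in Atg5f/f;Vav cells and 0 lower in the limma fit over all probes. The 3 were Rpl7a, Rpl27 and Rpl8, all large subunit proteins. At an unadjusted p under 0.05, 10 core genes were higher and 0 lower, against 24.5% of all genes higher and 23.5% lower. Counting the paralogues and Rps19bp1, 7 of 84 genes (8.33%) were higher and 0 lower, against 18.7% of all 20778 genes higher and 15.3% lower. Leaving out control 1 or control 2 took the member count from 7 to 0, and the count over all probes from 11024 to 219 and 148. Among the members, 59 of the 78 core genes had a log2 fold change within 0.2 of zero, and the interquartile range was 0.146 over the core genes against 0.709 over all genes. Most genes are dimmer than these, and probes of matching signal had a narrower spread. The interquartile range was 0.228 over all probes with a mean log2 signal between 7 and 8 and 0.185 at 8 or more, against 0.177 and 0.133 over the member probes. Those ranges held 253 and 151 probes in all, of which 64 and 50 were themselves member probes.

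**Figure D1:**
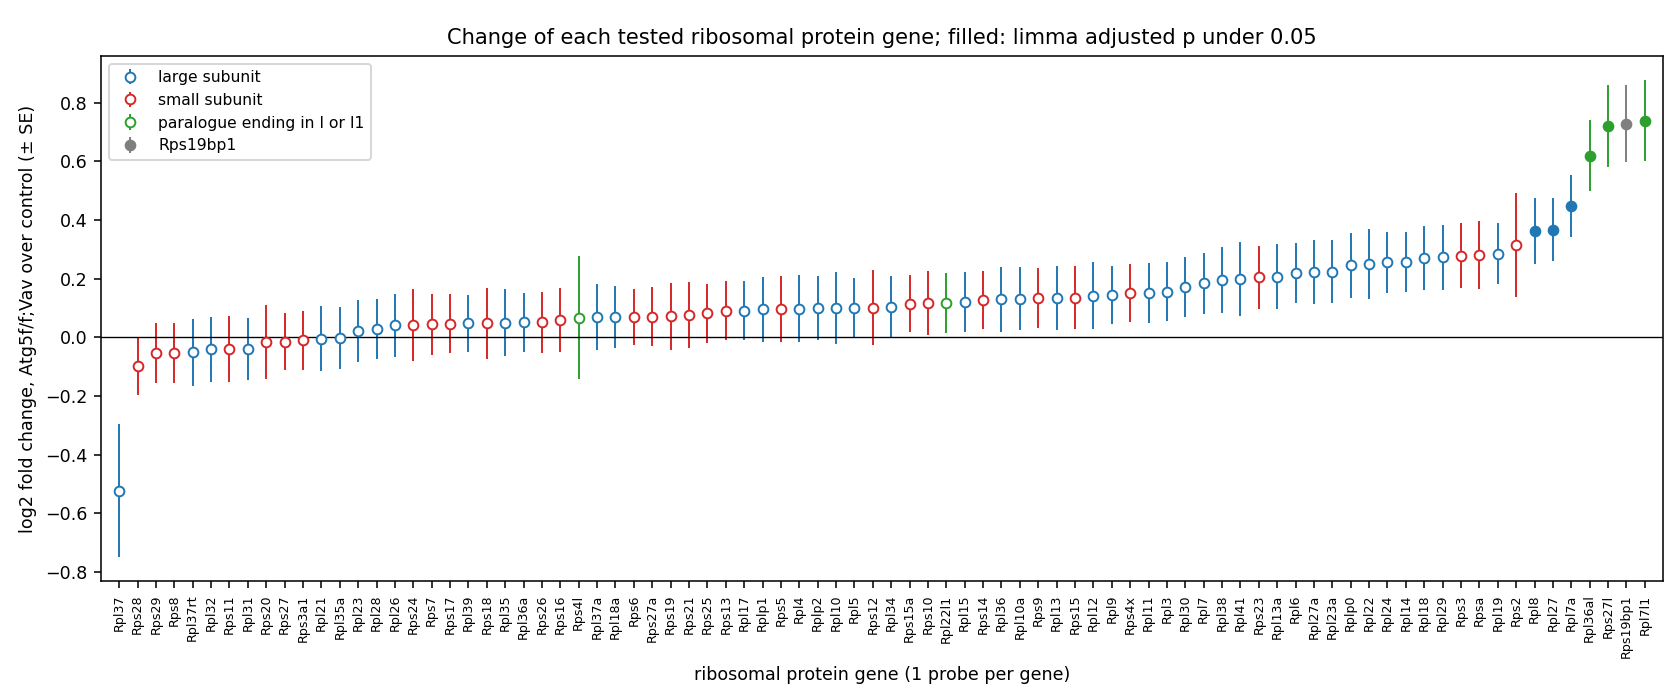
Log2 fold change of each of the 84 tested genes, ordered by size, with bars for the SE and colours for large subunit (blue), small subunit (red), paralogues (green) and Rps19bp1 (grey). Filled points passed the limma threshold, and the paralogues Rpl36al, Rps27l and Rpl7l1 and the gene Rps19bp1 stand to the right of the core genes at 0.62 to 0.74.

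The median log2 fold change was 0.10 over the core genes and −0.03 over all genes, and 65 of the 78 core genes were above zero. This small offset depended on the scaling between arrays. It was −0.06 when each array was scaled to the 75th percentile of the probes detected on all arrays, a choice that moved the median of all genes by −0.16, and it was 0.02 after quantile normalisation. Relative to the median of all genes, the core median stood 0.13 higher in both percentile scalings and 0.04 higher after quantile normalisation. The percentile scalings differ by a constant per array, so their agreement was fixed in advance. Per array, the median deviation of the core genes from their control means was 0.01, −0.02 and 0.02 in controls. In Atg5f/f;Vav samples it was 0.01, 0.13 and 0.17. The first Atg5f/f;Vav array lay within the range of the controls and the other two above it. In 34 of 84 member genes (40.5%) every Atg5f/f;Vav array was above every control array, and in 1 gene, Rps28, every one was below, against 29.6% and 26.3% of all genes.

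Among the core genes that passed, Rpl7a, a protein of the large subunit, had log2 signals of 7.28, 7.19 and 7.30 on control arrays and 7.69, 7.62 and 7.79 on Atg5f/f;Vav arrays. The groups did not overlap, and the log2 fold change was 0.45 ± 0.11 (SE, limma adjusted p = 0.0228). Its second probe was also higher on all Atg5f/f;Vav arrays but did not pass, with 0.23 ± 0.10 (SE). Rpl27 had 7.51, 7.48 and 7.58 against 7.81, 7.87 and 7.997, without overlap. Its change of 0.37 ± 0.11 (SE, limma adjusted p = 0.0382) came from a probe printed in 10 spots, whose SD within an array was between 0.0412 and 0.0883. The second Rpl27 probe also gave 0.37. Rpl8 had 7.58, 7.51 and 7.68 against 7.87, 7.93 and 8.06, a change of 0.36 ± 0.11 (SE, limma adjusted p = 0.0443). Rpl27 and Rpl8 were chosen after their values were seen, as the remaining core genes past the threshold. Leaving out any 1 control array took both below the threshold, with limma adjusted p from 0.0593 to 0.144, and Rpl7a lost its call without control 1 (0.0836) and without control 2 (0.0873).

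Members with well-known individual roles changed by 0.28 or less, and none of them passed. Rpl5 and Rpl11, which bind Mdm2 when ribosome assembly stalls, changed by 0.10 ± 0.10 and 0.15 ± 0.10 (SE). Rpl5 had 6.99, 6.85 and 6.99 on control arrays and 7.06, 7.02 and 7.05 on Atg5f/f;Vav arrays, which did not overlap but differed by less than the limma SE. Rps6, the substrate of the ribosomal S6 kinases downstream of mTOR, changed by 0.07 ± 0.10. Rps19 and Rps14, whose loss underlies Diamond-Blackfan anaemia and the anaemia of the 5q− syndrome, changed by 0.07 ± 0.11 and 0.13 ± 0.10. Rps19 ranged from 8.56 to 8.59 on control arrays and from 8.48 to 8.76 on Atg5f/f;Vav arrays, so the groups overlapped. The stalk proteins Rplp0, Rplp1 and Rplp2, which recruit elongation factors, changed by 0.24 ± 0.11, 0.10 ± 0.11 and 0.10 ± 0.11. The other Rplp1 probes, also bright, gave 0.28 ± 0.12 and 0.28 ± 0.11 without overlap between groups, and neither passed. Rpl38, which is required for translation of Hox mRNAs, and Rpsa, the laminin receptor, changed by 0.20 ± 0.11 and 0.28 ± 0.12. Rpl10, which joins the large subunit late in its maturation, changed by 0.10 ± 0.12. Adjusted p-values of these genes in the limma fit ranged upward from 0.102, that of Rpsa. With an intensity trend in the variance model Rpsa and Rplp0 passed, with adjusted p of 0.0309 and 0.0363.

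Core proteins that the symbol rule misses changed within the same range. Fau, fused to a ubiquitin-like protein and giving Rps30, changed by 0.03 ± 0.11 (SE). Rack1 (listed as Gnb2l1), a scaffold of the small subunit, changed by 0.14 ± 0.11. Neither passed the threshold.

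Large subunit genes had a median log2 fold change of 0.13 and small subunit genes of 0.07, a difference of 0.06. The subunits were not matched for signal. Over member probes the median was 0.15 at a signal of 5 to 7, 0.11 at 7 to 8 and 0.07 at 8 or more. The part of signal in the subunit difference was not tested. Of 47 large subunit genes, 41 were above zero and 3 were called. Of 31 small subunit genes, 24 were above zero and 0 were called by their representing probes. Rps2 is among these, although its other tested probe was called higher, at 0.72 ± 0.12 (SE, limma adjusted p = 0.0149). With a gene taken as the mean of its tested probes, Rps2, Rps27a and Rps12 were called higher and Rps24 lower. At an unadjusted p under 0.05, 8 large and 2 small subunit genes were higher, both smaller shares than the 24.5% of all genes. Taken per array as the difference between the median deviations of the subunits, the values were −0.0063, 0.00084 and 0.013 in controls against 0.028, 0.068 and 0.072 in Atg5f/f;Vav samples. These groups did not overlap, and the SD over arrays pooled within the groups was 0.0187. The sign of the subunit difference was the same in every alternative run, from 0.0426 to 0.0617. Array-wide scaling, the filters on dim probes and the replicate block cannot change this difference, so those runs do not test it. The small subunit median itself was −0.03 after quantile normalisation and −0.09 in the alternative percentile scaling.

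Of the 5 paralogues tested, 3 rose and Rpl22l1 and Rps4l did not pass, against 18.7% of all genes higher. The paralogues were dimmer than most core genes. Among probes of other genes, 45.8% were called with a median log2 fold change of 0.30 at a signal of 5 to 7, and 34.4% were called below 5. Rps27l, a paralogue of Rps27 that p53 is known to induce, had log2 signals of 4.91, 4.89 and 5.12 on control arrays and 5.58, 5.59 and 5.91 on Atg5f/f;Vav arrays. The lowest Atg5f/f;Vav array was above the highest control, and the change was 0.72 ± 0.14 (SE, limma adjusted p = 0.0168), or 1.65-fold. Its second probe gave 0.77 ± 0.14. Rpl36al, which encodes a protein nearly identical to Rpl36a, had 5.04, 5.05 and 5.20 against 5.59, 5.69 and 5.87. This change was 0.62 ± 0.12 (SE, limma adjusted p = 0.0168), and the second probe gave 0.70 ± 0.13. After quantile normalisation Rpl36al changed by 0.27 and lost its call (limma adjusted p = 0.0646), and Rps27l changed by 0.36 and kept it (limma adjusted p = 0.0454). Rpl7l1, a paralogue of Rpl7 that works in the assembly of the large subunit, had −1.13, −1.30 and −0.97 against −0.26, −0.57 and −0.36. The groups did not overlap, and the change was 0.74 ± 0.14 (SE, limma adjusted p = 0.0166).

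The probes behind these rises are shown 5′ to 3′, because a paralogue can be told from its parent only by its own letters. The Rpl36al and Rps27l probes shown are the second ones, which lie nearer the transcript start.
Rpl36al: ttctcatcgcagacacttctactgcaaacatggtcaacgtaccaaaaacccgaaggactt
Rps27l: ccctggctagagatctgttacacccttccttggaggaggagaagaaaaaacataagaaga
Rpl7l1: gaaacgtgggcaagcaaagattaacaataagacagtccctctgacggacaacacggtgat
On mm9 the file places them at chr12:70284093-70284152 (minus strand), chr9:66793986-66794695 (plus strand, 710 bases of genome for a 60-base probe) and chr17:46915373-46915432 (minus strand). None of the probes of Rpl36al, Rps27l or Rpl7l1 shared 30 bases with a probe of another gene name on the array. Cross-hybridisation with the parent transcripts was not tested.

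**Figure D2:**
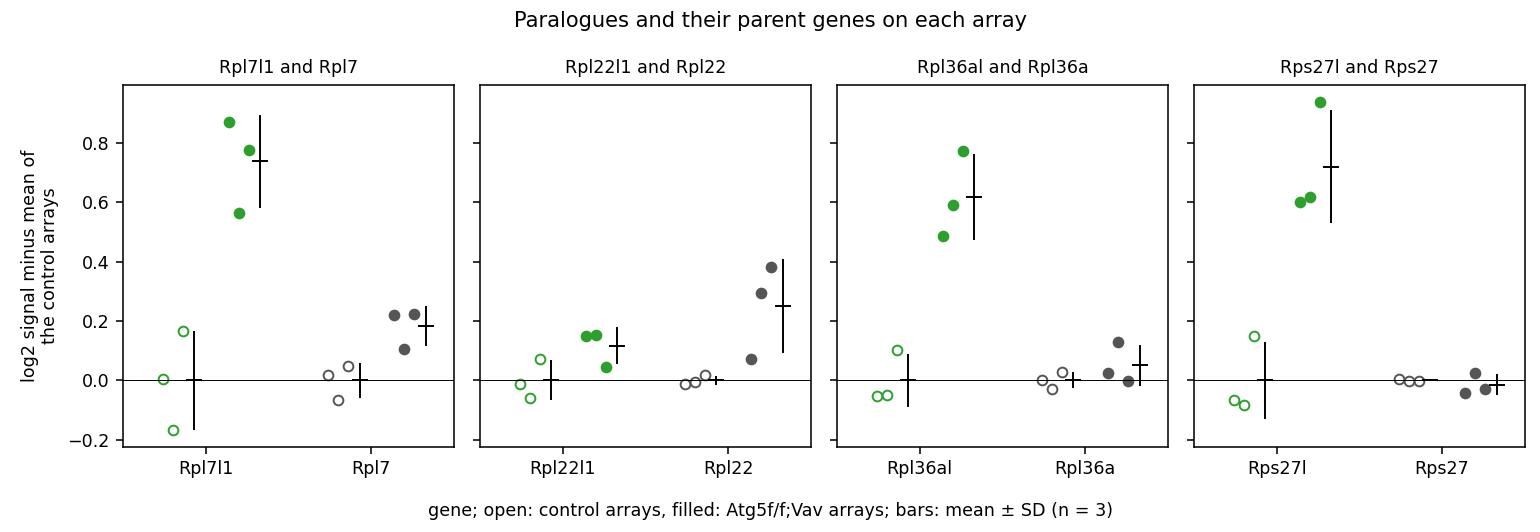
Log2 signal minus the mean of the control arrays for each paralogue (green) and its parent gene (grey), with 1 open point per control array, 1 filled point per Atg5f/f;Vav array, and bars for mean ± SD (n = 3). Rpl7l1, Rpl36al and Rps27l separate the groups by 0.62 to 0.74. The parents Rpl7 and Rpl22 also separate them, with smaller changes of 0.18 and 0.25. Rps27 and Rpl36a do not separate them, and the ranges of Rpl22l1 overlap.

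Parents of these paralogues moved less. Rps27 had 8.08, 8.07 and 8.08 on control arrays and 8.04, 8.10 and 8.05 on the others, which overlapped, and its log2 fold change was −0.02 ± 0.10 (SE). Its probes are placed by the file on chromosome 9 rather than on chromosome 3, where RefSeq has the gene, so a copy of the gene may share this signal. Rpl36a changed by 0.05 ± 0.10, Rpl7 by 0.18 ± 0.10 and Rpl22 by 0.25 ± 0.12, and none passed. In Rpl7 and Rpl22 the groups did not overlap, and in Rpl36a they did. Within arrays, the difference between paralogue and parent was larger in Atg5f/f;Vav samples by 0.74 for Rps27l, 0.57 for Rpl36al and 0.55 for Rpl7l1. The groups did not overlap in any of these. The 2-sided exact permutation p was 0.1 in each, the smallest that 3 arrays against 3 allow, and 0.133 after Benjamini-Hochberg adjustment over 4 pairs. The fourth pair ran the other way. Rpl22l1, whose mRNA is known to be held down by Rpl22, had 5.75, 5.70 and 5.83 against 5.91, 5.91 and 5.80, and its difference to Rpl22 changed by −0.13 (exact permutation p = 0.4). Rps4l has no gene under its symbol without the final letter. It changed by 0.07 ± 0.21 (SE), with control arrays spread from 2.01 to 2.79. Rps19bp1, which is not a ribosomal protein but binds Rps19 and Sirt1, had 1.81, 1.72 and 1.92 against 2.45, 2.42 and 2.75, a change of 0.73 ± 0.13 (SE, limma adjusted p = 0.0161).

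Probes of the same gene mostly gave similar changes. Over 60 genes with at least 2 tested probes, the median gap between the lowest and highest log2 fold change was 0.0823. Per probe, 20 of 181 were called higher and 2 lower, against 17.3% and 17.1% of all probes. Both probes called lower belonged to Rps24, a small subunit gene whose pre-mRNA is known to be spliced in several ways near its 3′ end. The 4 tested Rps24 probes split evenly. The probe that represents the gene, at base 527, had 8.49, 8.44 and 8.38 on control arrays and 8.29, 8.56 and 8.58 on Atg5f/f;Vav arrays, a change of 0.04 ± 0.12 (SE). The probe at base 356 changed by 0.07 ± 0.11. Both are listed for 3 curated RefSeq transcripts.

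The probe at base 444 is listed for only 1 of these 3 transcripts, and its 60 bases are placed over 2321 bases of mm9. It had 8.45, 8.42 and 8.20 on control arrays and 7.73, 7.65 and 6.49 on Atg5f/f;Vav arrays. The groups did not overlap, and the third Atg5f/f;Vav array was far below the other two. The log2 fold change was −1.07 ± 0.32 (SE, limma adjusted p = 0.0432), or −1.11 relative to the representing probe within arrays (exact permutation p = 0.1, the smallest possible). The probe at base 2612 of a predicted transcript also fell, from 0.17, 0.20 and 0.04 to −0.44, −0.62 and −0.75, a change of −0.74 ± 0.12 (SE, limma adjusted p = 0.0151). The call for the probe at base 444 was lost in 6 of 17 alternatives, among them those without control 1, 2 or 3. Without the third Atg5f/f;Vav array its change was −0.67 and the call was kept. The probe at base 2612 lost its call without control 1 and without control 2. The probe letters below show the first 60, 50 and 30 bases of the probes at bases 356, 444 and 527, because the probes of this gene differed in their change.
Rps24, base 356: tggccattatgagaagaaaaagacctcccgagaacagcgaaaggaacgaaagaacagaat
Rps24, base 444: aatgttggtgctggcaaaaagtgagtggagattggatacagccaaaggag
Rps24, base 527: ttgatgttttgctgtgatgtgcagatttct
On the plus strand of mm9 the file places them at chr14:25311190-25312666, chr14:25312695-25315015 and chr14:25315021-25315080. The probe at base 2612 is placed at chr14:25314669-25314728, within the span of the probe at base 444 and before the probe at base 527. No mm9 annotation was used here, so the exons were not assigned.

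**Figure D3:**
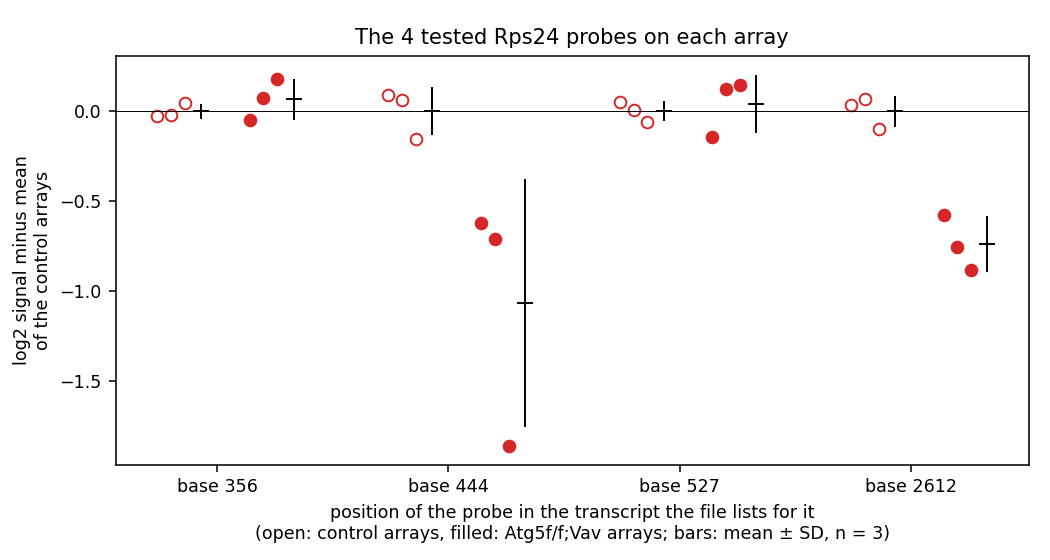
Log2 signal minus the mean of the control arrays for the 4 tested Rps24 probes, by the position of the probe in its listed transcript, with open points for control arrays, filled points for Atg5f/f;Vav arrays and bars for mean ± SD (n = 3). The probes at bases 356 and 527 overlap between groups, and those at bases 444 and 2612 do not, with mean changes of −1.07 and −0.74. Positions refer to different transcripts, and on the genome the probe at base 2612 lies before the probe at base 527.

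Rps27a and Rps12 followed Rps24 as the genes whose probes differed most. Rps27a, a fusion of ubiquitin and a small subunit protein, changed by 0.07 ± 0.10 (SE) at its bright probe and by 0.94 ± 0.19 at a dim probe near the transcript start, where control arrays read −4.18, −4.37 and −4.12 and Atg5f/f;Vav arrays −3.25, −3.64 and −2.96. Rps12 changed by 0.10 ± 0.13 at its bright probe and by 0.81 ± 0.20 at a dim probe, which had −0.26, −0.05 and 0.21 against 0.72, 0.49 and 1.11. In both genes the dim probe passed (limma adjusted p = 0.0171 and 0.0244) and the bright probe did not. Rps2, chosen after its values were seen, differed between bright probes. The representing probe changed by 0.31 ± 0.18 (SE), with control arrays of 6.44, 6.39 and 6.96, the third of them above the lowest Atg5f/f;Vav array at 6.80. Its other tested probe, printed in 10 spots, had 6.21, 6.07 and 6.33 against a lowest value of 6.86 on Atg5f/f;Vav arrays, a change of 0.72 ± 0.12 (SE, limma adjusted p = 0.0149). On mm9 the file places the representing probe at chr17:42864841-42864900 and the other at chr17:24857583-24857642, so they may not read the same locus. Both Rps2 probes share 30 bases with probes of other gene names, so copies of the gene may contribute.

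The share of probes called varied with signal, in the members and in the other probes. Of 28 member probes with a mean log2 signal below 5, 11 were called higher and 1 lower, against 16.7% and 17.7% of all probes. In either direction, 34.4% of other probes were called at this signal. The median log2 fold change was 0.19 for the members and −0.08 for all probes. The number called was 6 of 39 between 5 and 7, 4 of 64 between 7 and 8 and 0 of 50 at 8 or more. Among probes of other genes, 45.8% were called between 5 and 7, 23.3% between 7 and 8 and 1.98% at 8 or more. Over the same ranges the median log2 fold change was 0.30, 0.10 and 0.04 for probes of other genes and 0.15, 0.11 and 0.07 for the members. No spot was saturated by the scanner's flag. Whether the brightest probes understate changes was not tested. The lowest core value, −0.52 ± 0.23 (SE) for Rpl37, came from a dim probe between −4.02 and −3.08 that did not pass (limma adjusted p = 0.11). The probe listed for Rpl37rt, a retrogene, is also listed for the Rpl37 transcript, and changed by −0.05 ± 0.11 at a bright signal of 8.63 to 8.87. Rpl37rt and Rpl37 were both counted among the large subunit genes, and so among the core genes.

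**Figure D4:**
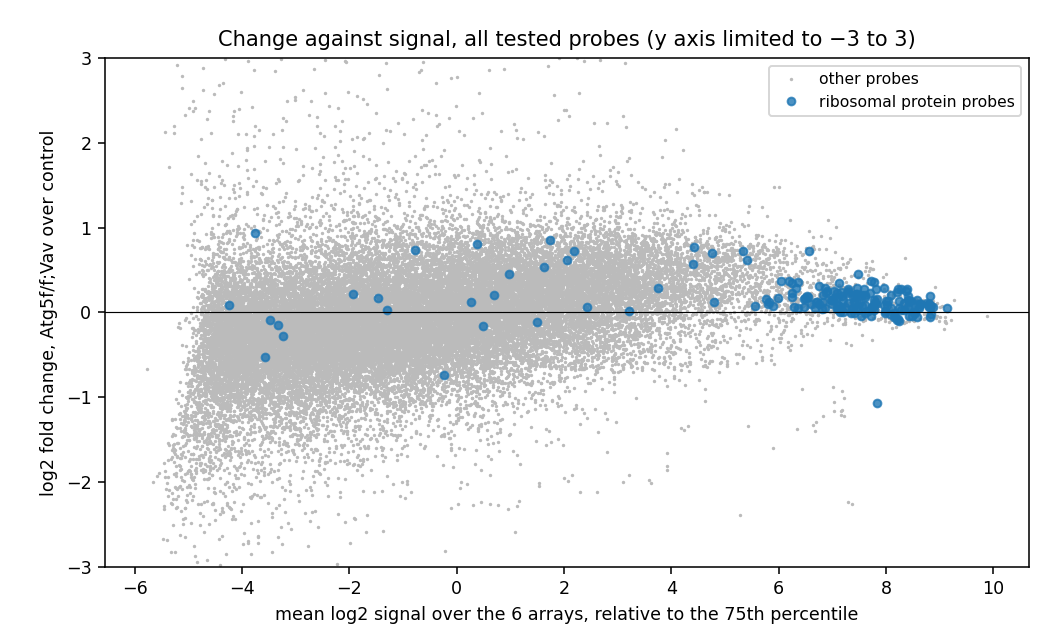
Log2 fold change against mean log2 signal for the 181 tested ribosomal protein probes (blue) and the other tested probes (grey), with the vertical axis limited as its title states. Member probes lie mostly at a signal of 5 or more, where the grey cloud narrows towards the right, and the Rps24 probe at −1.07 lies apart.

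Spot-to-spot error was small. Of the member probes, 65 were printed in 10 spots, and the SD over the 10 spots of an array had a median of 0.0395. Over arrays the same probes had a median SD of 0.0501 in controls and 0.0693 in Atg5f/f;Vav samples. Of the 186 member probes, 28 probes of 23 genes share 30 bases with a probe of another gene name, and 7 probes of Rpl13, Rpl36, Rps27 and Rps29 are placed on a chromosome other than that of the gene. For these, signal from copies of the gene cannot be separated. A probe placed elsewhere on the gene's own chromosome, as the representing Rps2 probe may be, was not counted.

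Other lists of the translation machinery held larger shares of called genes than the 3 of 78 core ribosomal protein genes. Over all genes, 18.7% were called higher and 15.3% lower. The lists were not matched to the core genes for signal. Among all probes, 16.7% were called higher at a signal below 5 and 42.5% at 5 to 7. The share was 14.2% at 7 to 8 and 1.32% at 8 or more. Mitochondrial ribosomal protein genes rose in 72 of 77 cases, with a median log2 fold change of 0.67. Ribosome biogenesis genes, which make and process ribosomal RNA, rose in 36 of 40 cases, with a median of 0.84. Genes with an Eif symbol, mostly translation initiation factors, rose in 34 of 55 cases with a median of 0.49, and 1 was lower, Eif4e1b, an oocyte-enriched cap-binding protein. This list also holds the eIF2 kinases Eif2ak1 to Eif2ak4, which are not initiation factors and of which Eif2ak2 rose by 0.88. Chaperones and carriers of single ribosomal proteins rose in 9 of 17 cases with a median of 0.43. Of these, Rrs1 and Rpf2, which deliver Rpl5 and Rpl11 to the large subunit, changed by 0.93 ± 0.16 (SE) each, with limma adjusted p of 0.0153 and 0.0155. Rrs1 had 0.92, 0.96 and 1.13 on control arrays and 1.91, 1.68 and 2.21 on Atg5f/f;Vav arrays, which did not overlap. In each list and in the members the number called fell to 0 without control 1 and without control 2, while the medians of mitochondrial ribosomal protein genes stayed at 0.66 and 0.60 and those of the core genes at 0.12 and 0.09. After quantile normalisation the numbers called higher were 44 mitochondrial, 32 biogenesis, 18 Eif-named and 6 chaperone genes and 1 core ribosomal protein gene. The lists were not tested against each other.

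**Figure D5:**
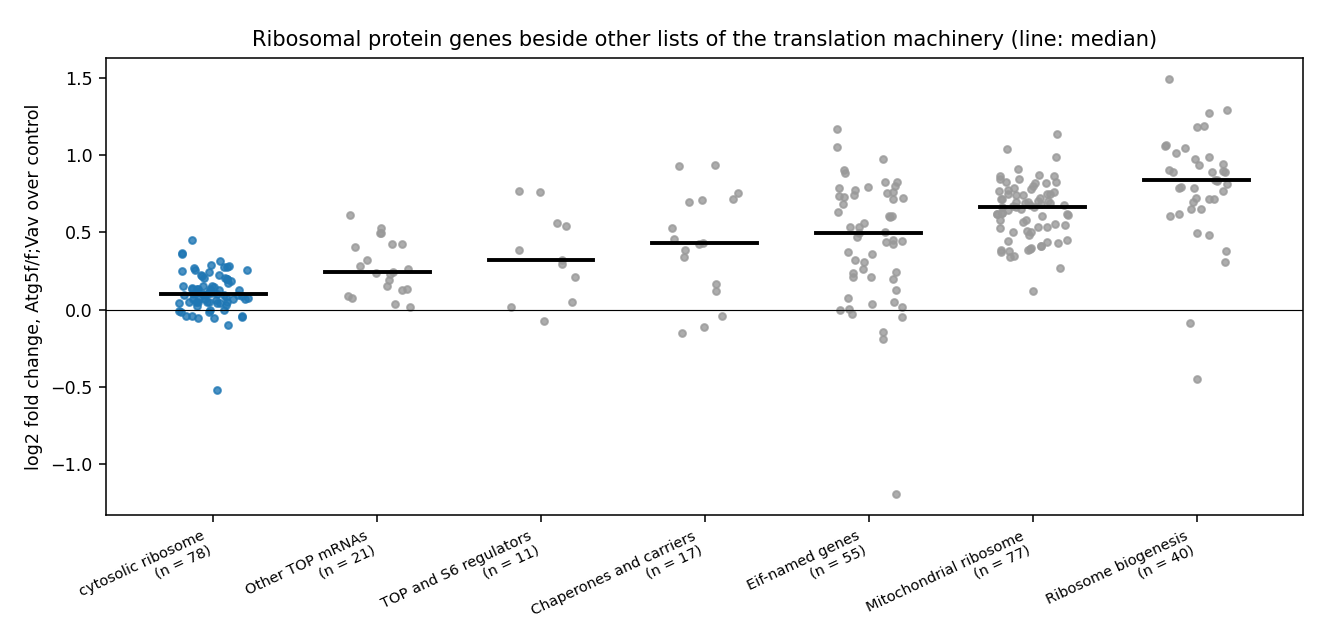
Log2 fold change of each tested gene of the core cytosolic ribosome (blue) and of 6 other lists (grey), with a line at the median. The core ribosomal protein genes centre on 0.10, and the medians reach 0.67 for the mitochondrial ribosome and 0.84 for ribosome biogenesis.

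Genes that share the TOP tract or regulate it were listed as well. Of 21 other genes with TOP mRNAs, 8 rose and 0 fell, with a median log2 fold change of 0.24. Over all genes, 18.7% were called higher and 15.3% lower. Elongation factor genes, chosen like Tpt1, Larp4, Mtor, Eif4ebp1 and Rps6kb1 after their values were seen, were divided, with Eef1d at 0.61, Eef1g at 0.50 and Eef2 at 0.41 past the threshold and Eef1a1 at 0.07 not. Tpt1, a TOP mRNA with a signal of 8.39 to 8.52 on all arrays, changed by 0.02 ± 0.10 (SE). After quantile normalisation the median of these genes was −0.02 and 0 of 21 passed. Of 11 regulators, 4 rose, namely Larp1, Larp4, Mtor and Eif4ebp1, against 1 of 11 after quantile normalisation and 2 with the percentile over probes detected on all arrays. Larp1, which binds the TOP tract, had 4.04, 4.12 and 4.29 on control arrays and 4.72, 4.72 and 5.31 on Atg5f/f;Vav arrays, without overlap, a change of 0.77 ± 0.19 (SE, limma adjusted p = 0.0239), and it was not called after quantile normalisation (0.0811). Rps6kb1, the gene of the main S6 kinase, changed by 0.21 ± 0.10 and did not pass.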

How the data were processed

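RNA of LSK cells was measured on 6 1-colour Agilent arrays. The authors deposited scanner intensity per spot, background-corrected by Agilent Feature Extraction 12.0.3.1, and a table of normalised intensity. Within an array their ratio varied by at most 0.00014%, so the table differs by array-wide scaling only. From log2 intensity, each array's 75th percentile over 59305 non-control spots was subtracted. Spots marked as outliers, 64 to 81 on each array, were dropped, and remaining spots of a probe were averaged. A limma model (version 3.58.1, R 4.3.3, with eBayes) was fitted to the 32074 probes above background on 3 or more arrays, and 2-sided p-values were Benjamini-Hochberg adjusted over these at a threshold of 0.05. The probe with the highest mean signal represented a gene. The steps were tested on simulated data.

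Members, lists and tests were chosen with earlier results of these data known. Named genes were the 5 largest called changes each way, paralogues and parents, genes fixed by role, the 3 genes whose probes differed most, and at most 3 called partners each way. Other genes are named as chosen after their values were seen. Probe coordinates are mm9. Lists were described by counts and medians, without set tests. The number of arrays limits the precision. Alternatives were other backgrounds, scalings and filters, the deposited table, an intensity trend, the methods' t-test, a replicate block, other ways to represent a gene, and leaving out each array. A gene among those fixed by role is not reported here.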

Additional observations from a re-analysis of the deposited data

How the results depend on the processing

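Against 7 member genes called higher, 4 were called after quantile normalisation, 4 with no filter on dim probes, 17 with an intensity trend, 0 with the methods' t-test, 12 with a gene taken as the mean of its tested probes, 4 with the probe of median change and 3 over the core ribosome alone. With each array left out the number ranged from 0 to 6, and was 0 without control 1 and without control 2. The methods' t-test gave 30 member genes higher and 1 lower before adjustment. The number lower was 1 in place of 0 with the mean of a gene's probes and with the probe of median change, Rps24 in both, and ranged from 0 to 1 with an array left out, the 1 being Rpl37 without the first Atg5f/f;Vav array. Over all probes, 11024 were called in the fit reported, 4538 with no filter, 0 with the methods' t-test (13541 before adjustment) and 148 to 10426 with an array left out. The member median moved from 0.10 to 0.021 after quantile normalisation and to −0.055 with the percentile over probes detected on all arrays, and ranged from 0.08 to 0.16 with an array left out. Relative to the parent, Rpl36al changed by 0.33, Rps27l by 0.49 and Rpl7l1 by 0.79 after quantile normalisation, and Rpl7l1 by 0.43 after normexp. Same-numbered arrays had deviations correlated at −0.07, 0.19 and 0.11, so numbers were not taken as pairs. With the replicate number as a block, 10173 probes and 5 member genes were called, without Rpl27 and Rpl8. No called member changed sign in any alternative. Causes were not tested, except that leaving out arrays or probes tests fewer of them. Rpl3l, Rpl10l and Rpl39l were too dim to compare.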
